A study of Mus musculus with 2 samples.

Results

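The genes that make, sense and degrade cyclic AMP (cAMP) were followed in CE1-4, a line of mouse prostate cancer cells, in 1 library of cells treated for 6 h with prostaglandin E2 (PGE2) and 1 library of untreated cells. They were chosen by symbol: 44 genes of the 23420 in the count table, comprising 10 adenylyl cyclases, 6 subunits of protein kinase A (PKA), 2 EPACs, 3 transcription factors of the CREB family, 4 coactivators, 12 phosphodiesterases, 2 kinase-anchoring proteins and 5 CREB target genes. Both libraries came from the same line and were made from total RNA with a stranded kit. The labels name no PGE2 dose, no vehicle and no time for the untreated cells, so a vehicle or time in culture cannot be told apart from PGE2. Neither group has a replicate, so no difference below has a replicate check, no p-value is given, and each interval covers counting error only.

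In this pathway a receptor coupled to the stimulatory G protein activates an adenylyl cyclase, and the cAMP it makes releases the catalytic subunits of PKA from their regulatory subunits and opens the EPAC exchange factors. PKA phosphorylates CREB and its relatives, while the CRTC coactivators enter the nucleus, and together they switch on genes with a cAMP response element (CRE) in the promoter. Phosphodiesterases end the signal by hydrolysing cAMP. PGE2 is known to raise cAMP through its receptors EP2 and EP4, and NR4A nuclear receptors, Sik1, Crem and Pde4d are classical transcripts induced by this route.

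The promoters of the 3 NR4A genes, classical CREB targets, and that of Prkar1a, the most abundant member, are shown because they hold several matches to the CRE or the full CRE. The windows are RefSeq promoters on GRCm38.p6, the assembly also called mm10, from 250 bases before to 50 bases after a transcription start, written 5′ to 3′ on the gene's strand. Capitals mark the 5-base CRE core, TGACG or its reverse complement CGTCA, searched on both strands, and the 8-base full site TGACGTCA, in which 2 cores overlap.
Nr4a1, chr15:101266596-101266895, plus strand: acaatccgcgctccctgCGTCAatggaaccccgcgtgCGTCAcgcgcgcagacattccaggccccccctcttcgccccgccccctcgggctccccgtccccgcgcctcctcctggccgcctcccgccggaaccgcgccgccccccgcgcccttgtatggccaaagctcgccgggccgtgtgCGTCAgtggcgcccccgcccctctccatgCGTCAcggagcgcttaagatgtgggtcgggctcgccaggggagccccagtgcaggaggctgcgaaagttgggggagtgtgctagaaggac
Nr4a2, chr2:57123954-57124253, minus strand: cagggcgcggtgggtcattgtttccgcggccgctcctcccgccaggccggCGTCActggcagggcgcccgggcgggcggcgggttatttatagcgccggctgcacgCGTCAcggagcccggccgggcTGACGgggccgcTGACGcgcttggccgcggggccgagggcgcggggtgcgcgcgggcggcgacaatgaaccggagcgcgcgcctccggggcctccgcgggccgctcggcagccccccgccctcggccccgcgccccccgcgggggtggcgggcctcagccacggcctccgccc
Nr4a3, chr4:48045055-48045354, plus strand: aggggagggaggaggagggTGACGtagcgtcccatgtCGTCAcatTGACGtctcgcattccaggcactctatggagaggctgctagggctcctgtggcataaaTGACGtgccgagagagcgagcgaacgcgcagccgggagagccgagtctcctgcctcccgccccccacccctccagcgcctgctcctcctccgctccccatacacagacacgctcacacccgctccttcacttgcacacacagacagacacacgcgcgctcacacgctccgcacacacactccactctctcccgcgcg
Prkar1a, chr11:109650699-109650998, plus strand: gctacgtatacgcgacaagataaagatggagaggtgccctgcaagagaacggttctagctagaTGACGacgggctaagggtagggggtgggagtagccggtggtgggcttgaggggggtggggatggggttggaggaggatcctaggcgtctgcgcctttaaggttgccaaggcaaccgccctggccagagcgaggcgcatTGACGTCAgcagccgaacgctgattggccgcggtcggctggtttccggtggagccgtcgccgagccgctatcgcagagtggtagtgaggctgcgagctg
Each NR4A window held 4 cores and no full site. In Nr4a1 the cores began 233, 213, 69 and 40 bases before the start, in Nr4a2 200, 144, 123 and 111 bases before it, and in Nr4a3 231, 213, 205 and 147 bases before it. Of 32851 windows of all genes, 6837 (20.8%) held at least 1 core, and 76 (0.231%), with the NR4A windows among them, held at least 4. The Prkar1a window held the full site, 49 bases before the start, and a further core 187 bases before it. In an overlapping Prkar1a window of another start, not printed, the same full site began at base 39 after that start. The full site stood in 588 windows (1.79%). The 34 members with an entry had 63 windows, of which 19 held at least 1 core. By gene, 17 of the 34 members held one in some window, beside 23.1% of all 27025 genes, with genes of several windows having more chances to do so. Prkar1a was the 1 member of these 34 with a full site. The other 10 members, among them Crem, Sik1 and Gem, had no window and were not searched. A match of letters is a description and does not show that a factor binds there.

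The treated library held 17582808 counts and the untreated library 16908429. Levels are given in CPM, counts relative to the library size after scaling by the trimmed mean of M values, so that 1 CPM stood for 17.6 counts in the treated and 16.9 counts in the untreated library. Luminal keratin genes were abundant, with Krt8 at 1276 CPM treated and 1256 CPM untreated and Krt18 at 778 CPM treated and 758 CPM untreated. Vim, a mesenchymal gene, was at 2096 CPM treated and 2029.6 CPM untreated. The basal genes Krt5 and Trp63, the leukocyte gene Ptprc and the endothelial gene Pecam1 had at most 7 counts in a library. The PGE2 receptor gene Ptger4, encoding EP4, had 492 counts treated and 431 untreated, and Ptger2, encoding EP2, had 1 count in each. Gnas, encoding the stimulatory G protein alpha subunit, had 8592 counts treated and 8012 untreated, a log2 ratio of 0.04 (interval -0.0075 to 0.08), and shares exon bases with 2 genes on the opposite strand, 14.2% with Gm20721 and 9.52% with Nespas.

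Of the 44 genes, 32 reached 1 CPM in at least 1 library and were assessed for a difference. None of the 32 had a 95% interval for the treated over untreated ratio that excluded 1. Over all 11387 genes assessed, the interval lay above 1 for 6.61% and below 1 for 5.65%. No member passed the rule of a ratio of at least 2-fold with an interval that excludes 1, which 0.316% of all genes assessed passed (0.0527% as higher and 0.263% as lower in the treated library). The ratio was above 1 for 17 members and below 1 for 15, and their median log2 ratio was 0.0054, beside -0.0015 over all genes assessed. For 26 of the 32 neither a 2-fold higher nor a 2-fold lower level lay in the interval, as was the case for 92.4% of all genes assessed. The other 6 members were Pde4a, Pde4c, Pde7b, Pde8b, Nr4a1 and Nr4a2. They had between 30 and 38 counts in both libraries together, too few to exclude 2-fold in both directions. For Pde4a, Pde4c and Nr4a1 a 2-fold higher level lay outside the interval, and for Pde7b, Pde8b and Nr4a2 a 2-fold lower one. Each of the 6 reached 1 CPM only in the library where its level was higher, so the minimum itself favored uneven ratios among them.

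**Figure D1:**
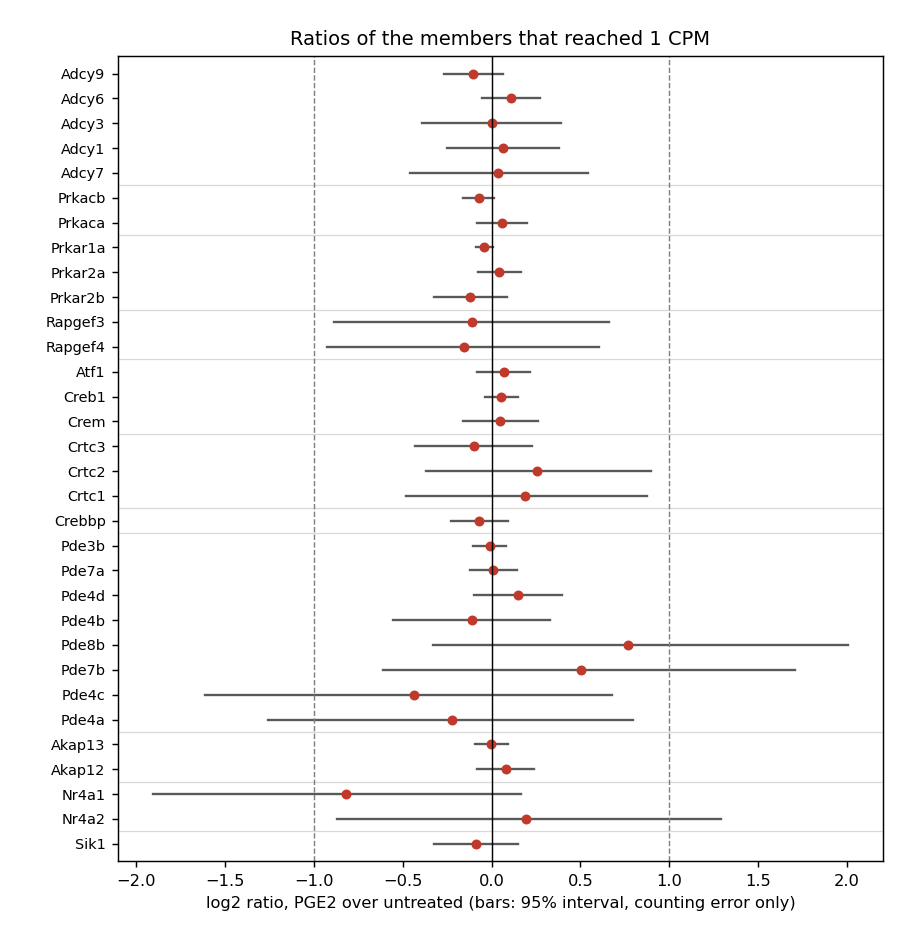
Log2 ratio of PGE2-treated over untreated CPM on the x axis for each of the 32 members that reached 1 CPM, ordered by class and level, with 95% counting intervals as bars and dashed lines at a 2-fold difference. Every bar crosses 0, from the narrow one of Prkar1a (-0.09 to 0.0075) to the wide one of Nr4a1 (-1.91 to 0.17).

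The remaining 12 members were scarce. Adcy4, Adcy10, Pde10a and Nr4a3 had 0 counts in both libraries, which allows up to 0.170 CPM treated and 0.178 CPM untreated, taken as 3 counts. Adcy2 had 1 count in each library, Adcy5 had 0 treated and 4 untreated, and Adcy8 had 0 treated and 2 untreated. Prkar1b, a regulatory subunit best known from neurons, had 3 counts treated and 2 untreated. Pde1a, a calmodulin-dependent phosphodiesterase, had 1 count treated and 0 untreated, and Pde3a, the paralog of Pde3b, had 5 treated and 8 untreated. Pde8a had 13 counts in each library. Gem, a small GTPase gene and CREB target, had 4 counts treated and 3 untreated.

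Ratios were also set against the spread of genes of similar abundance. In each band of total counts, the central 95% of log2 ratios over all genes assessed was taken as that spread. All 32 members lay inside it. Among genes below 100 counts the range was -1.06 to 0.77, and Pde8b, at 0.77 with 20 counts treated and 11 untreated, lay at its upper edge. This band holds only genes that reached 1 CPM in at least 1 library. For members near that minimum it is therefore not an independent check. From 1000 to below 3000 counts the range was -0.18 to 0.17, and from 3000 to below 10000 counts it was -0.12 to 0.14. The 13 members with a combined count of 1000 or more had log2 ratios from -0.10 to 0.11. Combined counts of the members assessed ran from 30 for Pde4c and Pde7b to 13975 for Prkar1a.

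**Figure D2:**
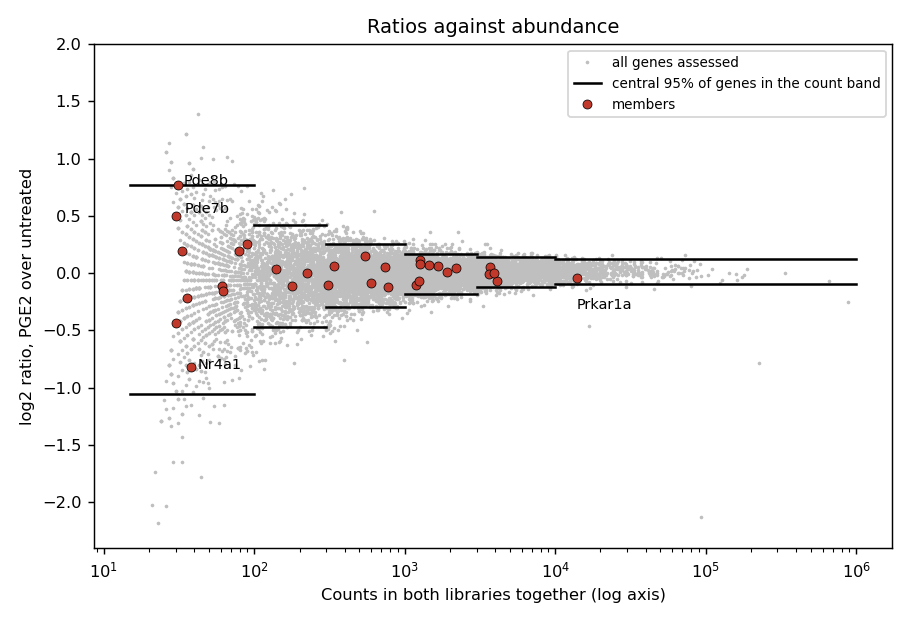
Log2 ratio of PGE2-treated over untreated CPM against counts in both libraries together (log axis), for all 11387 genes assessed (grey) and the 32 members assessed (red), with black lines at the central 95% of genes in each count band. The members lie within the lines, with Pde8b at the upper line of its band and Nr4a1, at -0.82, the lowest.

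To compare genes with each other, levels were divided by the length of each gene's exons, as CPM per kilobase (kb). On this scale the members assessed ran from 0.173 CPM per kb for Pde4a to 98.2 for Prkar1a in the treated library. Prkar1a was at 101 CPM per kb in the untreated library and ranked 573 by its mean level per kb among the genes with a known exon length. Prkacb, Prkaca, Atf1, Pde3b, Prkar2a and Creb1 followed, each between 12.0 and 23.3 CPM per kb in both libraries. The cyclase, EPAC, CRTC and NR4A genes all lay below 7 CPM per kb.

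**Figure D3:**
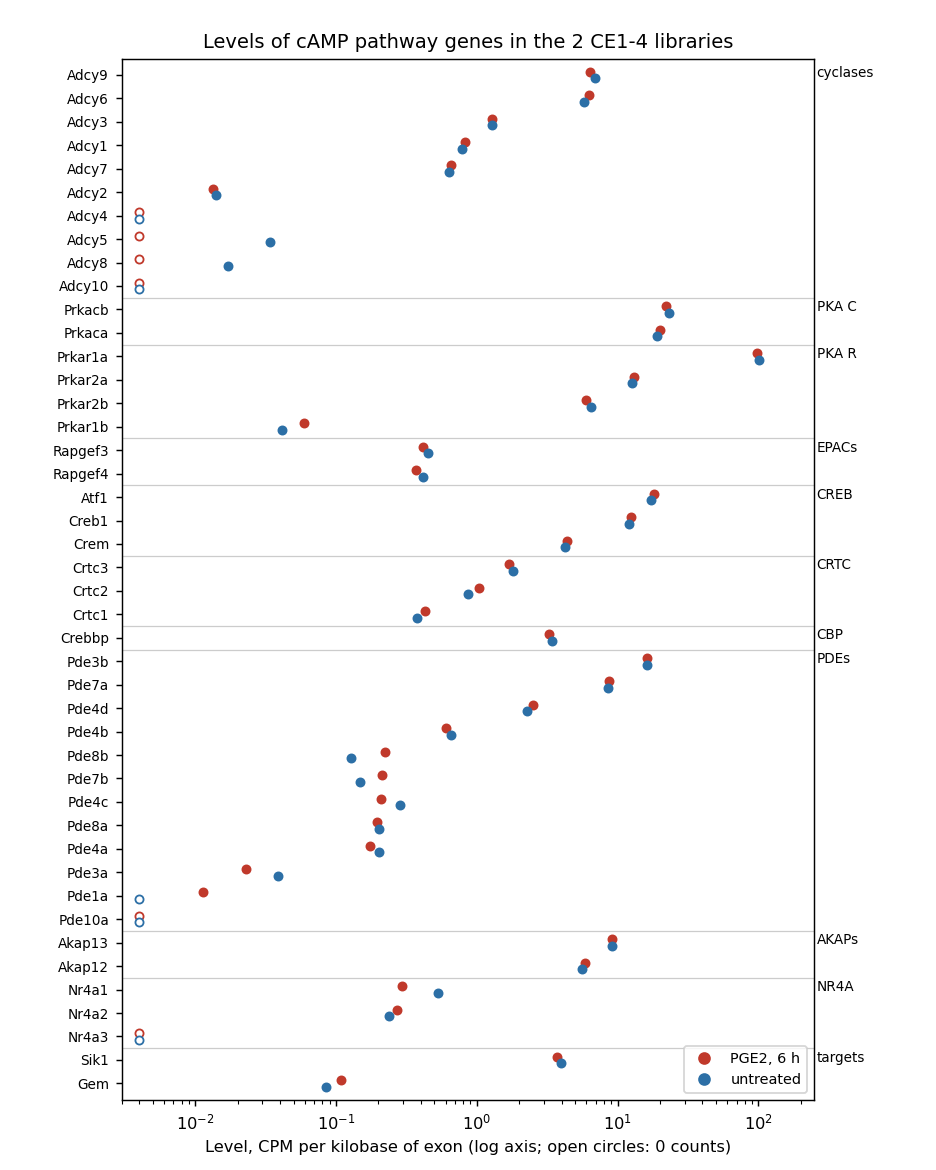
Level in CPM per kb of exon (log axis) of each of the 44 members, grouped by class and ordered by level, in the PGE2-treated library (red) and the untreated library (blue). Within the cyclases the levels run from about 6 CPM per kb for Adcy9 and Adcy6 to 0 counts for Adcy4 and Adcy10 (open circles).

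Among the adenylyl cyclases, which make cAMP from ATP, Adcy6 and Adcy9 were the main transcripts. Adcy6 encodes a cyclase that calcium inhibits, and Adcy9 the cyclase that responds weakly to forskolin. Adcy6 had 665 counts treated and 589 untreated, 37.7 CPM (34.9 to 40.7) against 34.9 CPM (32.2 to 37.9), and a log2 ratio of 0.11 (-0.05 to 0.27). Adcy9 had 588 counts treated and 604 untreated, 33.4 CPM (30.7 to 36.2) against 35.8 CPM (33.0 to 38.8), and a log2 ratio of -0.10 (-0.27 to 0.06). The 2 genes thus lay on opposite sides of 1, each with an interval that included it. The ratio of Adcy6 to Adcy9 counts was 1.13 in the treated and 0.975 in the untreated library, a log2 ratio of ratios of 0.21 (-0.02 to 0.45). Per kb the pair made up 40.5% and 41.6% of the cyclase level in the treated library.

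The other cyclases were lower. Adcy1, a calcium- and calmodulin-stimulated cyclase best known from neurons, had 177 counts treated and 162 untreated (log2 ratio 0.06, -0.25 to 0.38). Adcy3, the cyclase of olfactory neurons and primary cilia, had 114 and 109 (0.00014, -0.39 to 0.39), and Adcy7 had 72 and 67 (0.04, -0.46 to 0.54). Adcy3 shares 24.3% of its exon bases with Cenpo on the opposite strand, a gene with 199 counts treated and 183 untreated. Since the strand setting of the counting is not given in the sources used here, reads from those shared bases cannot be assigned to either gene. A similar limit holds for Adcy6, Pde7a, Pde8b, Rapgef3 and Rapgef4, where antisense genes for which no counts are listed share exon bases. The shares were 10.02% for Adcy6, 8.78% for Pde8b, 7.32% for Rapgef4 and 0.740% for Pde7a, and for Rapgef3 they were 8.56% and 5.31% with 2 antisense genes. Over all 10 cyclases the summed counts were 1617 treated and 1538 untreated, a log2 ratio of 0.0080 (-0.09 to 0.11).

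Among the 44 members, the PKA genes were the most abundant group. Prkar1a, encoding the type I alpha regulatory subunit that holds the kinase inactive, had 7045 counts treated and 6930 untreated, 400 CPM (390 to 409) against 411 CPM (401 to 421). Its log2 ratio of -0.04 (-0.09 to 0.0075) had the narrowest interval of all members, equal to 0.972-fold (0.940 to 1.01). Prkar2a, the type II alpha subunit that binds anchoring proteins tightly, had 1138 counts treated and 1056 untreated (0.04, -0.08 to 0.17). Prkar2b, the type II beta subunit, had 382 counts treated and 397 untreated (-0.12, -0.33 to 0.09). Prkar1a supplied 83.8% of the regulatory subunit level per kb in the treated and 84.1% in the untreated library.

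Both common catalytic subunits were expressed, Prkacb slightly above Prkaca per kb. Prkacb had 2039 counts treated and 2051 untreated, a log2 ratio of -0.07 (-0.16 to 0.02), and Prkaca had 872 counts treated and 800 untreated, 0.06 (-0.08 to 0.20). The Prkacb gene has the longer exons, so its count excess over Prkaca, 2.34-fold treated and 2.56-fold untreated, came to 1.12-fold (1.03 to 1.21) treated and 1.22-fold (1.13 to 1.33) untreated per kb. The ratio of the pair differed between the libraries by -0.13 (-0.30 to 0.03) in log2. Regulatory subunit transcripts exceeded those of Prkaca and Prkacb together 2.78-fold per kb in the treated and 2.83-fold in the untreated library. No other catalytic kinase gene was part of this sum. Their ratio of summed counts, 2.943 treated and 2.941 untreated, differed by 0.0011 (-0.09 to 0.09) in log2. Transcript ratios are not ratios of the proteins.

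The EPACs, exchange factors for Rap GTPases that cAMP activates directly, were near the detection minimum. Rapgef3, encoding EPAC1, had 30 counts treated and 31 untreated (log2 ratio -0.11, -0.89 to 0.66), and Rapgef4, encoding EPAC2, had 30 treated and 32 untreated (-0.16, -0.93 to 0.61). The level of Rapgef3 was 0.415 CPM per kb treated and 0.448 untreated, and the summed EPAC counts of 60 treated and 63 untreated allowed a log2 ratio from -0.67 to 0.40. Which of the pair was more abundant was not resolved, as Rapgef3 exceeded Rapgef4 per kb 1.12-fold (0.653 to 1.93) treated and 1.09-fold (0.641 to 1.84) untreated.

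All 3 CREB family factors were expressed, with log2 ratios between 0.05 and 0.07. Creb1 had 1931 counts treated and 1779 untreated, a log2 ratio of 0.05 (-0.04 to 0.15). Atf1, which pairs with CREB on CREs, had 757 counts treated and 691 untreated (0.07, -0.08 to 0.22). Crem, whose internal promoter makes the cAMP-inducible repressor ICER, had 382 counts treated and 353 untreated (0.05, -0.16 to 0.26), 1.03-fold (0.893 to 1.20). Gene counts do not separate ICER from the other Crem transcripts, and a transcript of Gm6225 matches 215 bases of Crem at 99.5% identity. The summed counts of the 3 factors were 3070 treated and 2823 untreated, a log2 ratio of 0.06 (-0.02 to 0.13).

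The leading CREB factor depended on the scale. Creb1 had 62.9% of the family's counts in the treated and 63.0% in the untreated library, but its exons span 8776 bases against 2365 for Atf1. Per kb Atf1 was at 18.2 CPM treated and 17.3 untreated, Creb1 at 12.5 and 12.0, and Crem at 4.36 and 4.21. Creb1 stood at 0.687-fold (0.632 to 0.749) of Atf1 per kb in the treated and 0.694-fold (0.635 to 0.759) in the untreated library. A processed pseudogene, Atf1-ps, matches 810 bases of the Atf1 transcript at 98.4% identity, so the Atf1 level is less certain than its counting interval.

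Of the CRTC coactivators, which bind CREB after dephosphorylation, Crtc3 was the main transcript with 153 counts treated and 157 untreated (log2 ratio -0.10, -0.43 to 0.23). Crtc2, the hepatic regulator of gluconeogenesis, had 50 counts treated and 40 untreated (0.25, -0.37 to 0.89), and Crtc1, best known from brain, had 43 and 36 (0.19, -0.48 to 0.87). Crtc3 had 62.2% (55.8 to 68.3) of the family's counts in the treated and 67.4% (61.0 to 73.4) in the untreated library, with overlapping Clopper-Pearson intervals. Crebbp, encoding the acetyltransferase CBP that binds phosphorylated CREB, had 624 counts treated and 626 untreated (-0.07, -0.23 to 0.09). Its ratio to Ep300, the paralog, was 1.08 treated and 1.01 untreated in counts, a difference of 0.09 (-0.15 to 0.32) in log2.

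Phosphodiesterase transcripts were dominated by Pde3b, the enzyme that insulin activates in fat and liver, and Pde7a, a cAMP-specific enzyme insensitive to the PDE4 inhibitor rolipram. Pde3b had 1862 counts treated and 1795 untreated, 106 CPM in each library, a log2 ratio of -0.01 (-0.11 to 0.08). Pde7a had 987 counts treated and 937 untreated (0.01, -0.12 to 0.14). Pde3b made up 55.7% and Pde7a 29.9% of the phosphodiesterase level per kb in the treated library, against 56.5% for Pde3b in the untreated library. Pde3b exceeded Pde7a 1.86-fold (1.72 to 2.01) per kb treated and 1.89-fold (1.75 to 2.05) untreated. The summed counts of the 12 genes were 3317 treated and 3156 untreated (0.0075, -0.06 to 0.08), and their ratio to the cyclase sum was 2.051 treated and 2.052 untreated.

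Within the PDE4 group, the rolipram-sensitive enzymes, Pde4d was the main gene with 294 counts treated and 254 untreated, a log2 ratio of 0.15 (-0.10 to 0.39), or 1.11-fold (0.933 to 1.31). Pde4b had 87 counts treated and 90 untreated (-0.11, -0.56 to 0.33), Pde4a 17 and 19 (-0.22, -1.26 to 0.80), and Pde4c 13 and 17 (-0.44, -1.61 to 0.68). Pde4d was thus above 1 and the other 3 genes below it, and no interval excluded 1. The share of Pde4d in the PDE4 counts was 71.5% (66.9 to 75.9) treated and 66.8% (61.9 to 71.6) untreated, and its ratio to the others differed by 0.32 (-0.14 to 0.77) in log2. Pde7b had 18 counts treated and 12 untreated (0.50, -0.61 to 1.71), and Pde8b, of the high-affinity PDE8 family, 20 and 11 (0.77, -0.33 to 2.01). Pde8b thus had the highest ratio among the members assessed, with an interval from 0.794-fold to 4.02-fold. It reached 1 CPM only in the treated library, at 1.13 CPM against 0.652 CPM untreated, so the minimum of 1 CPM bears on its rank.

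**Figure D4:**
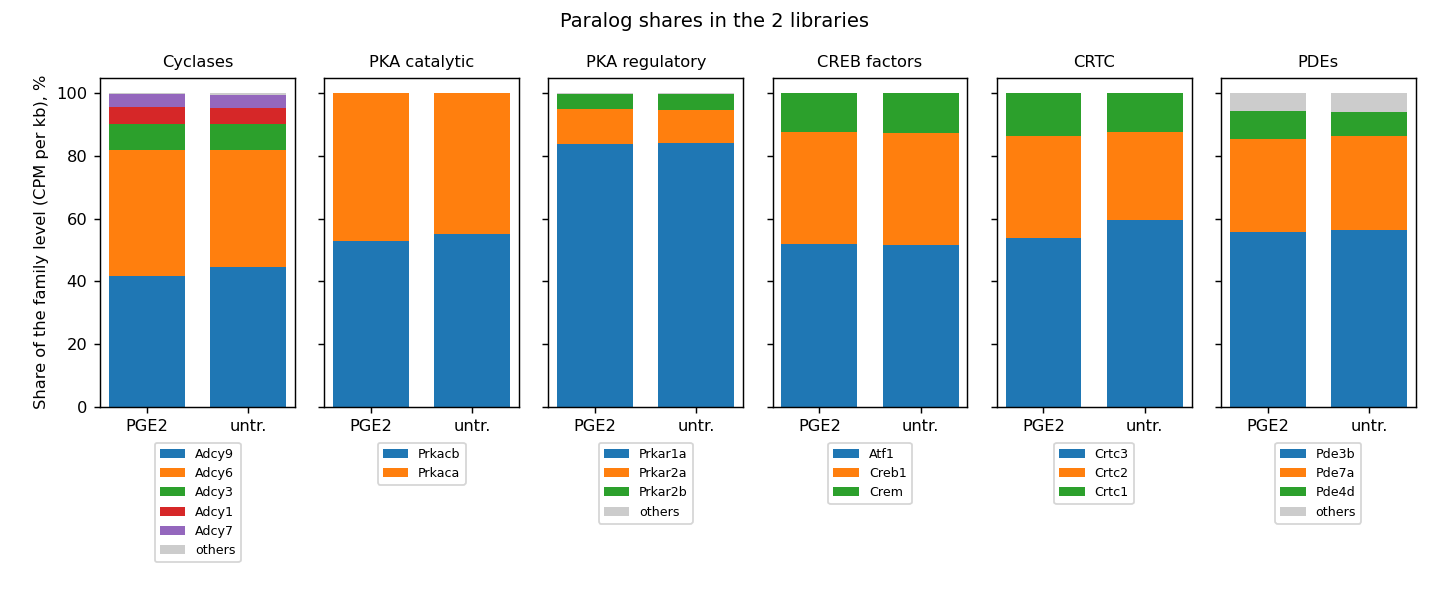
Share of each paralog in the level of its family (CPM per kb, %), in the PGE2-treated library (left bar of each panel) and the untreated library (right bar). Genes under 3% of the treated level are pooled as others. Prkar1a holds 83.8% treated and 84.1% untreated of the regulatory subunit level, and in the CRTC panel Crtc3 holds 53.7% treated and 59.5% untreated. The EPAC, anchoring protein and NR4A families are not plotted.

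The anchoring proteins tie PKA to sites in the cell. Akap12, also called gravin, had 658 counts treated and 596 untreated (log2 ratio 0.08, -0.08 to 0.24). Akap13, a large anchoring protein, had 2017 counts treated and 1930 untreated (-0.00068, -0.09 to 0.09). Per kb Akap12 stood at 0.649-fold (0.594 to 0.709) of Akap13 treated and 0.615-fold (0.560 to 0.674) untreated.

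Target genes whose promoters CREB is known to bind were either scarce or, for Sik1, present with an interval that included 1. Nr4a1, the orphan receptor Nur77, had 14 counts treated and 24 untreated, 0.794 CPM (0.434 to 1.33) against 1.42 CPM (0.912 to 2.12), and a log2 ratio of -0.82 (-1.91 to 0.17). Nr4a2, or Nurr1, had 18 counts treated and 15 untreated (0.19, -0.87 to 1.29). Nr4a3, or Nor1, had 0 in both, and its promoter holds 4 cores as those of its paralogs do. Together the NR4A genes had 32 counts treated and 39 untreated, a log2 ratio of -0.35 (-1.07 to 0.36). At this depth a 2-fold higher level of Nr4a1 in the treated library lay outside its interval, whose upper bound was 1.12-fold. For Nr4a2 the upper bound was 2.45-fold. Nr4a1 reached 1 CPM in the untreated library only, and Nr4a2 in the treated library only.

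Sik1, the salt-inducible kinase that keeps CRTC proteins in the cytoplasm, was the most abundant of the 5 target genes. It had 296 counts treated and 301 untreated, 16.8 CPM (14.9 to 18.8) against 17.9 CPM (15.9 to 20.0), and a log2 ratio of -0.09 (-0.32 to 0.15), or 0.941-fold (0.798 to 1.11). A ratio above 1.11-fold thus lay outside the counting interval of Sik1, as one above 1.20-fold did for Crem and one above 1.31-fold for Pde4d. These are levels at 6 h, and no earlier time was sampled.

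For 17 ratios between paralogs or classes, which do not depend on how the libraries are scaled, every exact 95% interval of the treated over untreated ratio included 1. The log2 values ran from -1.01 for Nr4a1 over Nr4a2 (-2.57 to 0.48), at 14 to 18 counts treated and 24 to 15 untreated, to 0.32 for Pde4d over the other PDE4 genes. The tightest were regulatory over catalytic subunits and Prkar1a over the other regulatory subunits (-0.04, -0.16 to 0.07).

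**Figure D5:**
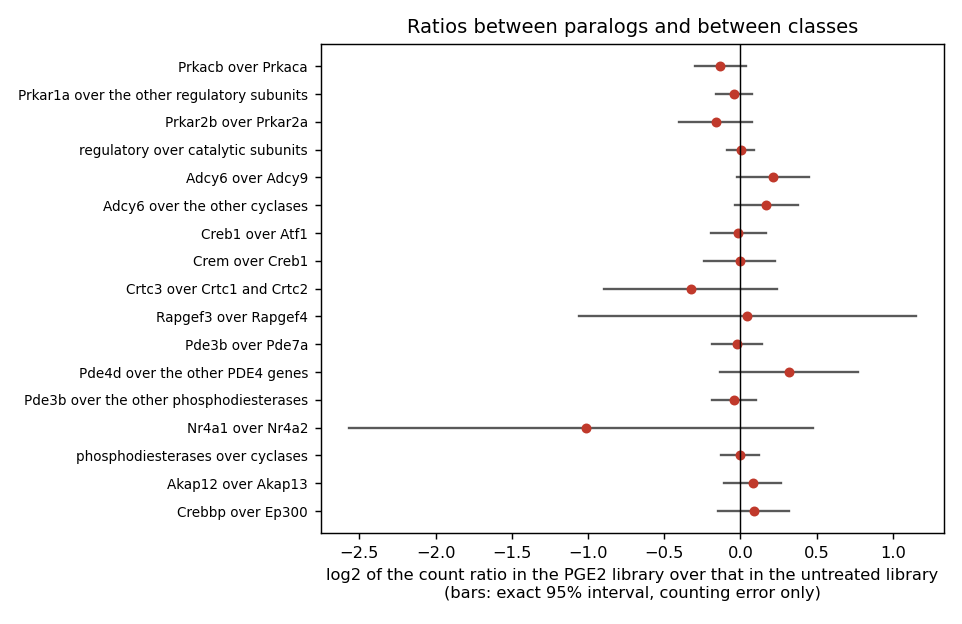
Log2 of the count ratio in the PGE2-treated library over that in the untreated library for 17 pairs of paralogs or classes, with exact 95% intervals covering counting error only. Every bar crosses 0. The Prkacb over Prkaca bar (-0.30 to 0.03) and the Adcy6 over Adcy9 bar (-0.02 to 0.45) lie mostly on 1 side.

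Other genes of the pathway were taken from 2 lists. Of 54 further signaling genes, 35 were assessed, with a median log2 ratio of 0.04, 4 intervals above 1 and 1 below, beside 6.61% above and 5.65% below over all genes assessed. Pkia, encoding a peptide inhibitor of the PKA catalytic subunits, had 1121 counts treated and 915 untreated (log2 ratio 0.23, 0.10 to 0.36), above the central range of its count band. Akap2, an anchoring protein gene, had 860 and 713 (0.21, 0.06 to 0.35), also above that range, and shares 59.8% of its exon bases with the gene Pakap on the same strand. Gnai3, an inhibitory G protein alpha subunit gene, had 6213 and 5663 (0.07, 0.02 to 0.12), and Hcn2, a cyclic nucleotide-gated channel gene, had 66 and 42 (0.58, 0.0080 to 1.18). Hcn2 was above the central range of its band as well, and Gnai3 and Crebzf were inside theirs. Crebzf, encoding a leucine zipper factor, had an interval below 1, with 1232 counts treated and 1292 untreated (-0.13, -0.25 to -0.02).

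Of 20 further cAMP-responsive genes, 15 were assessed, with a median log2 ratio of 0.00031, 1 interval above 1 and 2 below, beside the same 6.61% and 5.65% over all genes. Areg, encoding the EGF receptor ligand amphiregulin, had the 1 interval above 1, at 4713 counts treated and 4057 untreated (0.15, 0.09 to 0.21). The immediate early genes Fosb, with 83 and 112 counts (-0.49, -0.92 to -0.07), and Egr1, with 210 and 247 (-0.30, -0.57 to -0.03), had intervals below 1. Areg lay above and Fosb below the central range of their count bands. Egr1 lay just inside its own, at -0.2979 against a lower limit of -0.2984. These genes are known to answer to other signals as well. No gene of either list passed the 2-fold rule.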

How the data were processed

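Both libraries are stranded total RNA of CE1-4 cells. Per the submitters' processing notes, Trimmomatic, TopHat2, Bowtie and HTSeq were used with build mm10; no source used here gives the versions, the annotation or the strand setting. The authors deposited raw read counts per gene symbol, not normalized.

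Counts were scaled by TMM (edgeR 4.0.16, R 4.3.3; factors 1.003 treated and 0.997 untreated). Log2 ratios use a prior of 0.5 counts, with 95% Clopper-Pearson intervals. Levels have exact Poisson intervals, and paralog ratios have exact conditional intervals. With 1 library per group no model with replicates could be fitted. Genes under 1 CPM in both libraries were not assessed.

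Exon lengths, overlaps and positions are from the GENCODE M21 basic set, and all 44 members matched. Near-identical copies were sought at 97% identity over 100 bases. The members and lists, and the count bands, were chosen with earlier results of these data known. Every member may be named. From the other 2 lists, genes with an interval excluding 1 were named. The procedure was tested on simulated counts that held counting error only, which do not cover variation between cultures or libraries. The value of 1 marker gene is not reported here.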

Additional observations from a re-analysis of the deposited data

How the results depend on the processing

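No paired analysis was possible because each group holds 1 library, and for the same reason no library could be left out. Total-count, DESeq2 and upper quartile scaling, no minimum, a minimum of 5 CPM, a 99% interval, a prior of 5 counts and a 1.5-fold rule were tried where they apply. No member passed the size rule or had an interval excluding 1 under any of them. Only the other scalings and the absence of a minimum could have changed this result. A 99% interval contains the main one, and a minimum of 5 CPM only removes members. The 1.5-fold rule and the prior of 5 counts left the interval unchanged, and the size rule requires an interval that excludes 1. The members whose interval excluded 2-fold in both directions numbered 26, and 22 at the 99% level. At 5 CPM they numbered 21, because fewer members were assessed, and all of those assessed excluded it. The median log2 ratio of 0.0054 was -0.00027 with no minimum, and no direction is given for it. At the 99% level 3 further signaling genes and 1 further cAMP-responsive gene had an interval excluding 1, against 5 and 3. The signaling genes numbered 6 under total-count and upper quartile scaling and 4 at a minimum of 5 CPM. The cAMP-responsive genes numbered 3 under each of these settings. With the longest coding transcript as the length, the leaders by level per kb were the same genes. Atf1 then held 47.0% of the CREB factor level in the treated library instead of 51.9%, Prkacb 55.0% of the catalytic level instead of 52.8%, Prkar1a 85.4% of the regulatory level instead of 83.8%, and Pde3b 51.4% of the phosphodiesterase level instead of 55.7%. Depth limits the EPAC, NR4A, Pde4a, Pde4c, Pde7b and Pde8b values most.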
